A study of Mus musculus with 6 samples.

Results

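The genes of the mitotic spindle and the kinetochore were compared between Sox9-EGFP positive cells and their Sox9-EGFP negative counterparts in the mouse forelimb autopod, the hand plate in which the digits form. They were chosen by symbol from a fixed list of 58 genes, and the rule uses no measured value. These genes have 76 of the 55681 non-control probes of the array, and 56 of them were among the 13197 genes tested. Aurkb and Kif14 were not well above background on any of the 6 arrays and were not tested.

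The embryos were at stage E11.5 on a C57BL/6 background and carried EGFP knocked into the Sox9 locus, which all samples share. Mesenchymal cells were sorted for EGFP, giving 3 positive and 3 negative samples. A sample pooled about 10 autopods and had a 1-colour Agilent array of its own. The sort separates cells by reporter fluorescence, so the positive cells are those with Sox9 locus activity and the negative cells are all others that passed the gate. The sources used here do not say whether the samples came from separate litters or separate sorts, so the p-values measure the spread between these samples.

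Cells that divide build a spindle of microtubules, attach it to the centromeres through the kinetochore, and wait at the spindle assembly checkpoint until every chromosome is attached. The kinase Cdk1 with its B-type cyclins starts mitosis, and the anaphase-promoting complex ends it by marking cyclins and securin for destruction. Most of these genes are transcribed in G2 and mitosis, and their transcripts are commonly read as a sign of cycling cells. In the early limb bud most mesenchymal cells cycle, and Sox9 marks the cells that condense into cartilage. In sorted pools such as these, fewer cycling cells and less RNA per cycling cell cannot be told apart.

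The sort was visible at the reporter locus. Sox9, the transcription factor that starts cartilage formation, read 3.52, 2.99 and 3.60 on the positive arrays, against −0.88, −1.0 and −1.13 on the negative arrays, in log2 units relative to the 75th percentile of each array. Every level below is on this scale, and levels of different probes are not comparable. Per the file headers the arrays lay on 3 slides, each with 1 positive and 1 negative array. The slides paired positive replicate 1 with negative replicate 2, positive 2 with negative 3, and positive 3 with negative 1. Positive replicate 1 was dim, with a 75th percentile of 125.5 intensity units against 384.5 to 478.4 on the other 5 arrays. On slide 1, 402 of 26473 kept probes (1.52%) read at least 1 log2 unit higher on both arrays than on all 4 others, against 0 probes on slide 2 and 0 on slide 3.

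Markers of other cell types differed between the groups. Summed over the muscle precursor list the signal was 0.139 to 0.258 times the 75th percentile on the positive arrays and 0.597 to 1.31 times on the negative arrays, with 3 of 4 tested genes lower and Myf5 and Pax7 not above background on any array. The brightest 2 were Lbx1, called lower but well above background on only 1 of 3 positive arrays, and Met (−0.97 ± 0.31, SE, not called), on 2 of 3. The limb ectoderm sum was 22.3 to 36.8 on the positive arrays and 9.23 to 11.6 on the negative arrays, led by Trp63 and Krt18, with 3 of 5 genes higher and Cdh1 at background. Macrophage sums overlapped, at 0.772 to 2.15 on the positive arrays and 0.959 to 18.9 on the negative arrays, with Csf1r not called and Pf4, the 1 of 2 genes called lower, not well above background on the positive arrays. So did the erythroid sums, at 1.19 to 5.03 on the positive arrays and 1.84 to 43.4 on the negative arrays, led by Hbb-y and Hbb-bh1, with 1 of 5 genes lower and that one, Gata1, not well above background on the positive arrays. Endothelial sums were 2.84 to 8.04 on the positive arrays and 1.94 to 4.89 on the negative arrays, led by Kdr and Pecam1, neither of them called, with Emcn, Tek and Tie1 at background. Sox10, a neural crest gene, was called higher in positive cells (1.70 ± 0.43, adjusted p = 0.025) and was well above background on 3 of 3 positive and 1 of 3 negative arrays. Of the chondrogenic list 4 of 6 genes were higher, and of the limb mesenchyme list 5 of 10 were lower and 2 higher. The part of these cells in the differences below was not tested.

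With the 75th percentile scaling the mitotic genes as a group stood modestly lower in Sox9-EGFP positive cells, with 3 to 17 of the 56 turning sign under the other 4 scalings described below, and few of them passed the test one by one. With limma and Benjamini-Hochberg adjustment over all 13197 genes, 11 of the 56 tested members (19.6%) were called lower and 0 were called higher at an adjusted p under 0.05. Over all tested genes 24.4% were called lower, 10.6% higher and 35% in either direction, so the count of called members lay near, and below, that of all genes. Without adjustment, 23 members had a p under 0.05 on the lower side (41.1%, against 32.4% of all genes) and 0 on the higher side. Under this scaling all 56 members had a negative log2 difference, positive minus negative, against 63.7% of all tested genes. Their median was −0.36, which is 1.28-fold lower in positive cells, beside −0.18 for all tested genes. The differences ran from −0.84 for Spc24 to −0.08 for Cenpf, and 0 members reached 2-fold. For 44 members (78.6%) the 95% interval lay wholly within 2-fold in either direction, against 62.1% of all genes.

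The median can also be set beside the level of the genes. Bright genes as a class lay lower in positive cells: the 3299 brightest of all tested genes had a median difference of −0.34, with 39.7% of them called lower. Of the 56 members, 31 were among those genes.

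**Figure D1:**
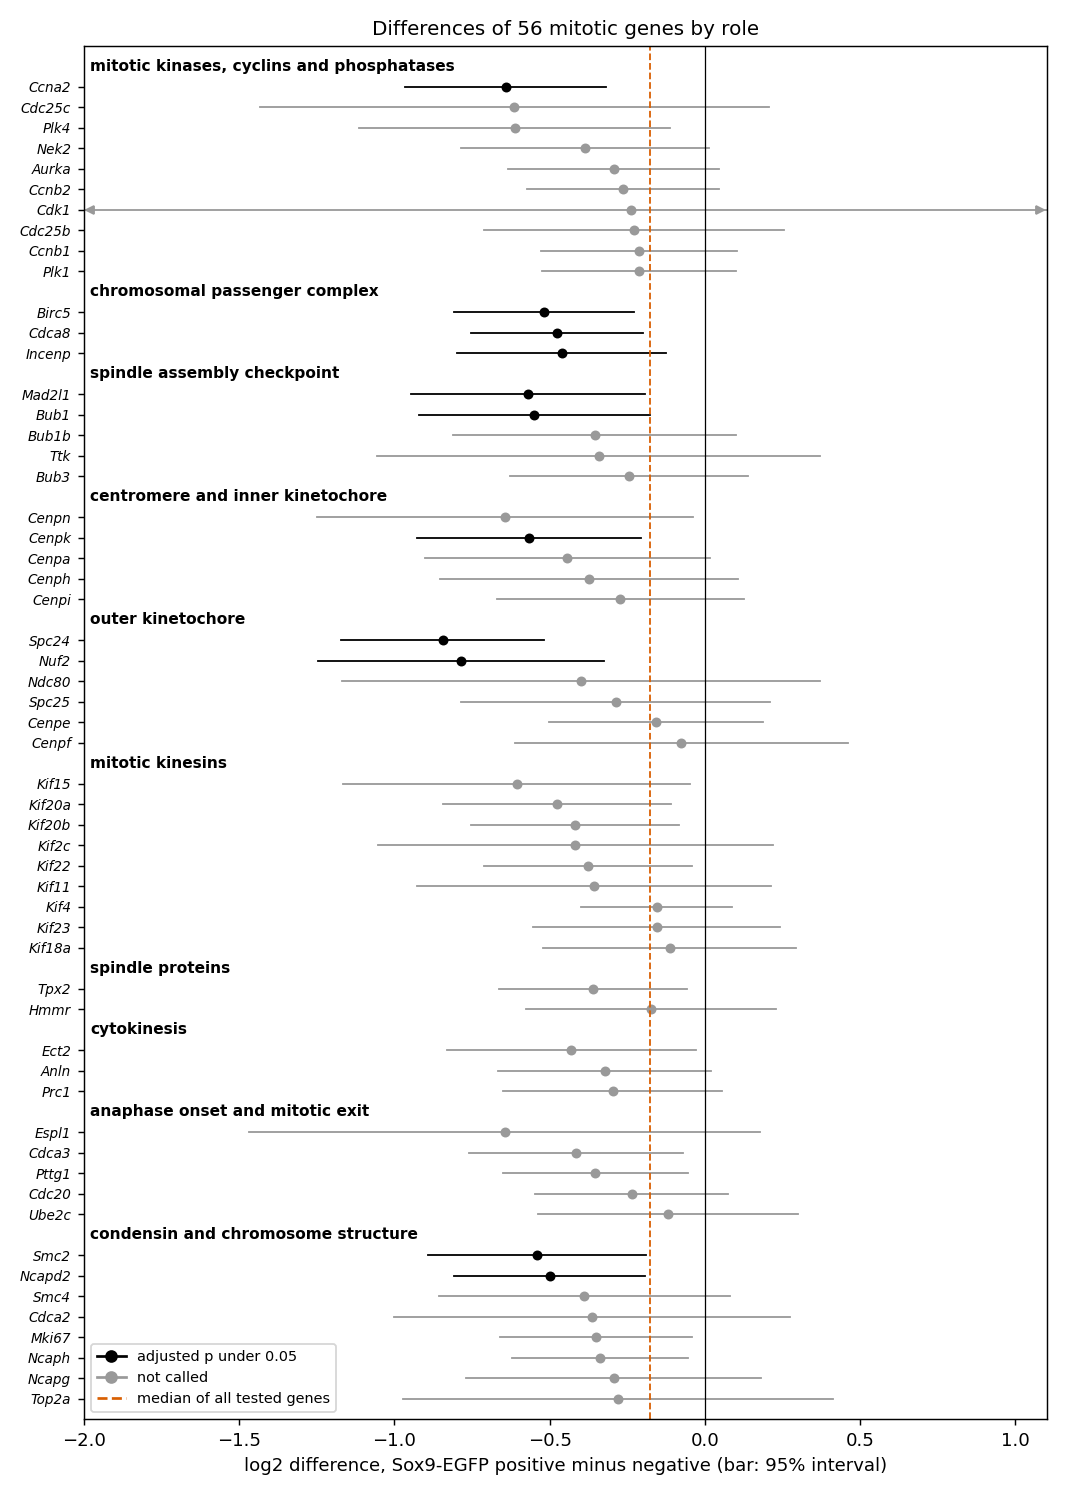
Log2 difference of each tested member, Sox9-EGFP positive minus negative, grouped by role, with its 95% interval from limma. Black marks the 11 called genes, grey the others, and the dashed line is the median of all tested genes at −0.18. All 56 points lie left of 0 under the 75th percentile scaling, and 3 to 17 of them turn sign under the other 4. The interval of Cdk1 runs past both ends of the axis, to −3.38 and 2.90.

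The kinetochore held the largest difference. Spc24, a subunit of the NDC80 complex that grips microtubules, read 2.01, 2.37 and 2.01 on the positive arrays against 3.0, 3.01 and 2.92 on the negative arrays (probe at chr9:21561562-21561621, minus strand, mm9 as in the files). The 6 values fall into 2 groups with a wide gap. The difference was −0.84 ± 0.14 (SE, n = 3 each; limma adjusted p = 0.0058), or 1.80-fold lower. Nuf2, its partner in the same complex, read 1.21, 1.83 and 1.33 on the positive arrays against 2.25, 2.08 and 2.40 on the negative arrays (chr1:171428989-171429048, minus strand), a difference of −0.79 ± 0.19 (adjusted p = 0.022). The groups do not overlap, although positive replicate 2 comes close to negative replicate 2. A second Nuf2 probe was well above background on only 1 of 3 positive arrays, against all 3 negative ones, and was not called in the fit of all probes (adjusted p = 0.075).

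The other 2 subunits of the NDC80 complex had smaller differences with wider errors. Ndc80 itself had −0.40 ± 0.32 (adjusted p = 0.37) and Spc25 had −0.29 ± 0.21 (adjusted p = 0.32). Both read higher in positive than in negative cells on slide 2, by 0.19 for Ndc80 and 0.02 for Spc25. The difference between subunits was not tested. Cenpe, a kinesin that carries chromosomes to the spindle equator, and Cenpf, a large protein of the outer kinetochore, had −0.16 ± 0.14 and −0.08 ± 0.22 (adjusted p = 0.43 and 0.81). Cenpf was well above background on 2 of 3 positive arrays.

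At the centromere 1 of 5 genes was called lower (20%, near the 24.4% of all tested genes). Cenpk, of the inner network that links centromeric chromatin to the NDC80 complex, read 3.56, 3.79 and 3.32 on the positive arrays against 4.10, 4.04 and 4.23 on the negative arrays (chr13:105039517-105039576, plus strand). Every positive array lay below every negative one, and the difference was −0.57 ± 0.15 (adjusted p = 0.029). Cenpa, the histone H3 variant that marks centromeres, had −0.44 ± 0.19 and Cenpn, which binds the Cenpa nucleosome, had −0.64 ± 0.25 (adjusted p = 0.12 and 0.092). Both were called once slide entered as a block (adjusted p = 0.037 for Cenpa and 0.015 for Cenpn). Cenph and Cenpi, of the same network as Cenpk, had −0.37 ± 0.20 and −0.27 ± 0.16. In Cenpa, Cenpn, Cenph and Cenpi the groups overlapped.

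The spindle assembly checkpoint holds back anaphase through Mad2l1 and the Bub proteins. Of its 5 listed genes, 2 were called lower (40%, beside 24.4% of all tested genes). Mad2l1, which binds and blocks Cdc20, read 3.58, 3.78 and 3.43 on the positive arrays against 4.25, 3.93 and 4.32 on the negative arrays (chr6:66490836-66490895, plus strand). The groups do not overlap, with a difference of −0.57 ± 0.16 (adjusted p = 0.033). Its other 2 probes, which are dimmer, had −0.35 ± 0.30 and −0.08 ± 0.38 and overlapped, so the call of Mad2l1 rests on 1 of 3 probes. Bub1, a kinase that marks centromeres and recruits the other checkpoint proteins, read 2.83, 2.83 and 2.39 on the positive arrays against 3.19, 3.18 and 3.34 on the negative arrays (chr2:127626988-127627047, minus strand). Again no positive array reached a negative one, and the difference was −0.55 ± 0.15 (adjusted p = 0.035).

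Bub1b, which encodes BubR1 of the mitotic checkpoint complex, read 1.85, 2.50 and 2.12 on the positive arrays against 2.57, 2.35 and 2.62 on the negative arrays. Positive replicate 2 lay above negative replicate 2, so the groups overlap, and the difference was −0.36 ± 0.19 (adjusted p = 0.19). Bub3, the partner of Bub1 and BubR1, and Ttk, the kinase that starts checkpoint signalling, had −0.25 ± 0.16 and −0.34 ± 0.30 (adjusted p = 0.28 and 0.41).

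All 3 measured subunits of the chromosomal passenger complex were called lower with the 75th percentile scaling, beside 24.4% of all tested genes. The complex corrects faulty attachments and later steers cytokinesis. No subunit was called under the other scalings described below. Birc5, also known as survivin, read 6.69, 6.75 and 6.45 on the positive arrays against 7.12, 7.12 and 7.20 on the negative arrays (chr11:117716978-117717037, plus strand), a difference of −0.52 ± 0.12 (adjusted p = 0.019). Cdca8, also known as borealin, read 5.58, 5.62 and 5.38 on the positive arrays against 6.05, 5.93 and 6.02 on the negative arrays (chr4:124595809-124595868, minus strand), a difference of −0.48 ± 0.11 (adjusted p = 0.022). At these probes both genes separate the groups without overlap and vary little within them. A second, dimmer Cdca8 probe had −0.58 ± 0.27 with overlapping groups (adjusted p = 0.18 in the limma fit of all probes). Of the other Birc5 probes, described below, 1 overlapped between the groups.

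Incenp, the scaffold of the passenger complex, read 5.68, 6.11 and 5.88 on the positive arrays against 6.36, 6.28 and 6.41 on the negative arrays (chr19:9946893-9946952, minus strand). Its difference of −0.46 ± 0.14 was the smallest among the called members (adjusted p = 0.045), and its second probe, shifted by 15 bases, had −0.37 ± 0.14. Under median centring Birc5, Cdca8 and Incenp had −0.37, −0.33 and −0.31 (adjusted p = 0.052, 0.057 and 0.097). Under quantile normalization these genes had −0.21, −0.12 and −0.13 (adjusted p = 0.21, 0.39 and 0.59). The kinase of the complex, Aurkb, read 5.0, 4.2 and 4.0 intensity units on the positive arrays against 5.3, 3.9 and 5.0 on the negative arrays. These readings are at background on every array, and they say nothing of the level of Aurkb in either group.

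**Figure D2:**
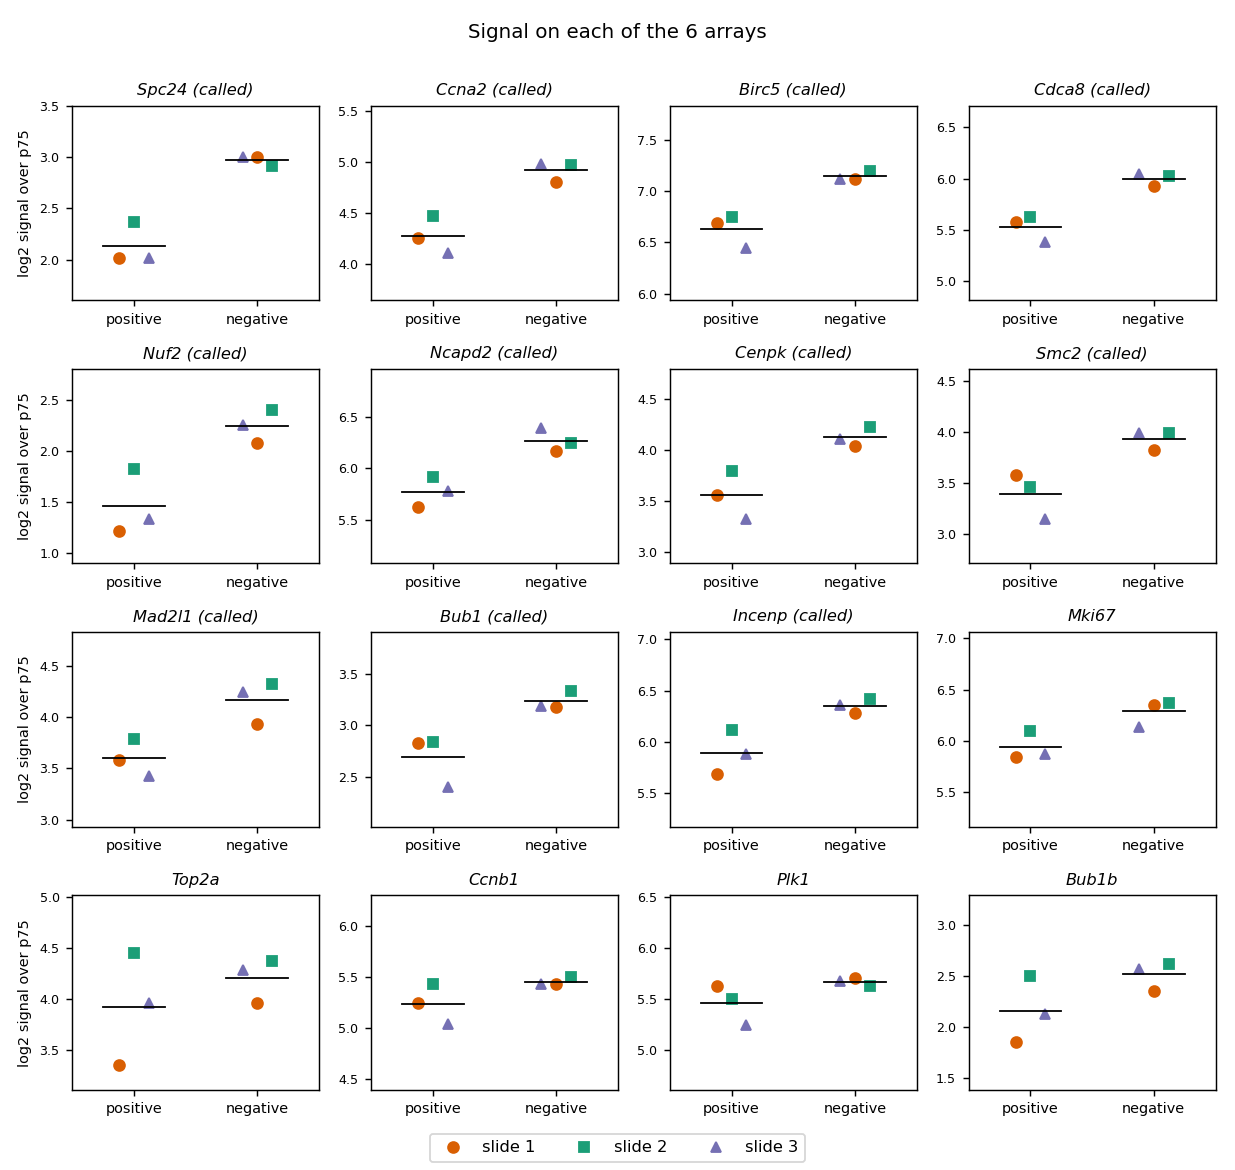
Signal of 16 members on each array in log2 units relative to the 75th percentile, with Sox9-EGFP positive left of negative in each panel. Lines are group means, colours and shapes the 3 slides, and every panel spans the same number of log2 units. The 11 called genes and 2 of the 5 uncalled ones, Mki67 and Plk1, separate the groups. In Top2a, Ccnb1 and Bub1b the square of slide 2 lifts the positive group into the negative one. In Top2a the positive triangle of slide 3 also lies just above the lowest negative array.

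Of the kinases, cyclins and phosphatases that drive entry into mitosis, 1 of 10 was called lower (10%, beside 24.4% of all tested genes). Ccna2, the cyclin of S phase and G2, read 4.26, 4.48 and 4.11 on the positive arrays against 4.99, 4.81 and 4.98 on the negative arrays (chr3:36463978-36464037, minus strand), a difference of −0.64 ± 0.13 (adjusted p = 0.014). Its groups are clear of each other. The B-type cyclins, which act later, were not called. Ccnb1 read 5.24, 5.43 and 5.04 on the positive arrays against 5.43, 5.43 and 5.50 on the negative arrays, and its groups meet at positive replicate 2. The difference of Ccnb1 was −0.21 ± 0.13 (adjusted p = 0.25), with −0.50 ± 0.28 and −0.41 ± 0.20 at its 2 dimmer probes. Ccnb2 had −0.26 ± 0.13 (adjusted p = 0.16).

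Plk1, the kinase that acts from mitotic entry to cytokinesis, read 5.62, 5.50 and 5.25 on the positive arrays against 5.67, 5.71 and 5.63 on the negative arrays. The groups only just miss each other, and the difference was −0.21 ± 0.13 (adjusted p = 0.25). Plk4, the kinase of centriole duplication, read −1.97, −1.28 and −1.72 on the positive arrays against −1.13, −1.19 and −0.81 on the negative arrays, with −0.61 ± 0.21 (adjusted p = 0.063). It was called once slide entered the fit as a block (adjusted p = 0.017). Its spread within each group was wide, and positive replicate 2 lay just under the negative arrays. Aurka and Nek2, kinases of the spindle poles, had −0.29 ± 0.14 and −0.39 ± 0.17 (adjusted p = 0.15 and 0.12). The phosphatases Cdc25b and Cdc25c, which switch on Cdk1, had −0.23 ± 0.20 and −0.61 ± 0.34 (adjusted p = 0.42 and 0.21). Cdc25c was called in the fit blocked by slide (adjusted p = 0.033).

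Cdk1 itself gave widely spread values at its brightest probe. That probe (A_55_P2048588, chr10:68801072-68801131, minus strand) read 2.19, −1.11 and −1.71 on the positive arrays against −1.06, 2.22 and −1.07 on the negative arrays. The high readings are positive replicate 1 and negative replicate 2, the 2 arrays of slide 1, and the difference was −0.24 ± 1.30 (adjusted p = 0.90). A probe 19 bases further along (A_55_P2016652, chr10:68801053-68801112) shares 41 of its 60 bases and never rose above background, at 4.8, 5.7 and 4.0 intensity units on the positive arrays against 5.0, 3.8 and 4.7 on the negative arrays. The bases in which they differ are shown in capitals, as the first 30 bases of the brighter probe and the last 30 of the other.
A_55_P2048588: TTCTTAATTTCCTACGTATaacttaattaa
A_55_P2016652: atgaatttaaaTATAATTCTGTATATGTGC
Both probes hold 81.7% A and T, the highest share among the 76 member probes. The third Cdk1 probe (A_55_P2016647, chr10:68799513-68799572) read −2.48, −2.13 and −2.76 on the positive arrays against −1.98, −1.95 and −2.12 on the negative arrays. It is dim, well above background on 2 of 3 positive arrays, but shows no step at slide 1, and its difference was −0.43 ± 0.19 (adjusted p = 0.15 in the fit of all probes).

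The same step appeared in 1 of 3 probes of Birc5. Probe A_55_P1983769 (chr11:117714057-117714116, plus strand) read 1.84, 0.19 and −0.16 on the positive arrays against 0.44, 2.61 and 0.50 on the negative arrays, again high on both arrays of slide 1. Probe A_55_P1983768 (chr11:117711112-117711171) read 3.26, 3.68 and 3.35 on the positive arrays against 3.96, 3.84 and 4.04 on the negative arrays, with no such step. The 2 probes have these sequences, printed without capitals because no base was singled out.
A_55_P1983769: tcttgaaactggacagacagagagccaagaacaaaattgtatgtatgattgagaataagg
A_55_P1983768: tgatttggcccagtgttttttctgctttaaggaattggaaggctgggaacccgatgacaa
The 3 Birc5 probes had differences of −0.56 ± 0.76, −0.51 ± 0.16 and, for the brightest, −0.52 ± 0.13. They thus gave close means with very unequal errors. On slide 1 alone, where both arrays share the step, Cdk1 by its brightest probe differed by −0.02 and Birc5 by the affected probe by −0.77. In the fit of all 26473 kept probes, 5 of 73 member probes were called lower, beside 13.7% of all kept probes. Without the 2 arrays of slide 1, 13 members were called lower instead of 11, and the median of the members was −0.37. The count over all genes in that fit is not given here.

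**Figure D3:**
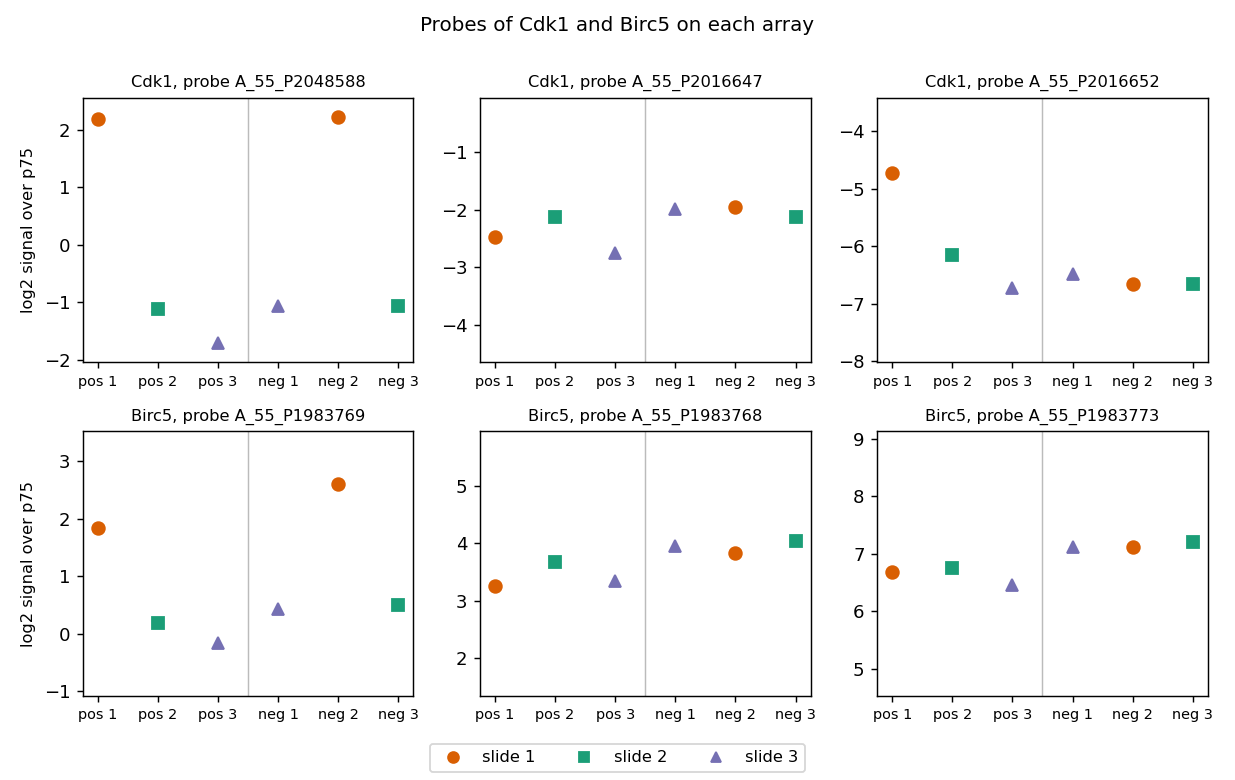
The 3 probes of Cdk1 (top) and of Birc5 (bottom) on each array, Sox9-EGFP positive arrays left of the grey line and negative arrays right of it, in log2 units relative to the 75th percentile. Colours and shapes are the slides, and every panel spans the same range. In the left panels the 2 circles of slide 1 stand above all other arrays in both groups. The probe at the top right is at background throughout.

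Of the mitotic kinesins, motors that slide and shorten spindle microtubules or move chromosomes, 0 of 9 tested genes were called. An unadjusted limma p under 0.05 was seen in 4 (44.4%), beside 32.4% of all genes on the lower side. With slide as a block 2 of the kinesins, Kif15 and Kif20b, were called (adjusted p = 0.016 and 0.039). Kif20a, a motor of the cleavage furrow, read 4.25, 4.43 and 3.92 on the positive arrays against 4.72, 4.67 and 4.64 on the negative arrays (−0.48 ± 0.15, adjusted p = 0.052). Kif20b, a related motor, read 2.50, 2.77 and 2.36 on the positive arrays against 2.87, 2.96 and 3.05 on the negative arrays (−0.42 ± 0.14, adjusted p = 0.059). Kif22, which pushes chromosome arms outward, read 4.85, 5.03 and 4.63 on the positive arrays against 5.24, 5.11 and 5.31 on the negative arrays (−0.38 ± 0.14, adjusted p = 0.079). In these 3 motors the groups do not overlap, and the adjusted p stays just past the threshold. Kif15 had −0.61 ± 0.23 with overlapping groups. Kif11, the motor that pushes the spindle poles apart, had −0.36 ± 0.24, and read higher in positive cells on slide 2 by 0.25. Kif2c, Kif4, Kif23 and Kif18a had −0.42, −0.16, −0.16 and −0.11.

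Neither spindle protein was called. An unadjusted limma p under 0.05 was seen in 1 of the 2, beside 32.4% of all genes on the lower side. Tpx2, which activates Aurka and seeds microtubules, read 3.04, 3.34 and 3.03 on the positive arrays against 3.52, 3.44 and 3.52 on the negative arrays, without overlap (−0.36 ± 0.13, adjusted p = 0.068). Hmmr, a protein of the spindle poles, had −0.17 ± 0.17 (adjusted p = 0.46). Of 3 cytokinesis genes, 0 were called and 1 had an unadjusted limma p under 0.05 (33.3%, against 32.4% of all genes, lower side). These were Ect2, which switches on RhoA at the furrow (−0.43 ± 0.17), Anln, which binds actin and septins there (−0.32 ± 0.14), and Prc1, which bundles the midzone (−0.30 ± 0.15). A second, dim Ect2 probe (A_55_P2099605, chr3:27020829-27020888), which the files tie to another transcript, read −1.53, −2.14 and −2.0 on the positive arrays against −2.48, −2.95 and −2.44 on the negative arrays. It was the only one of 73 kept member probes with a positive difference (0.73 ± 0.23, adjusted p = 0.067), and its groups do not overlap.

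Of the genes of anaphase onset and mitotic exit, 0 of 5 were called. An unadjusted limma p under 0.05 was seen in 2 (40%), beside 32.4% of all genes on the lower side. Cdca3, which helps to destroy the mitosis inhibitor Wee1, read 4.63, 4.63 and 4.24 on the positive arrays against 4.85, 4.94 and 4.95 on the negative arrays (−0.41 ± 0.14, adjusted p = 0.065), and the slide block brought it to an adjusted p of 0.049. Pttg1, the securin that restrains separase, read 4.28, 4.13 and 3.95 on the positive arrays against 4.47, 4.43 and 4.53 on the negative arrays (−0.35 ± 0.12, adjusted p = 0.069). Both separate the groups. Espl1, the separase itself, had a larger mean difference of −0.64 but an SE of 0.34, and positive replicate 1 read far below the rest. With slide as a block Espl1 was called (adjusted p = 0.044). Cdc20 and Ube2c, an activator and the ubiquitin carrier of the anaphase-promoting complex, had −0.24 ± 0.13 and −0.12 ± 0.17 (adjusted p = 0.20 and 0.63).

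Among 8 genes of condensin and chromosome structure, 2 were called lower (25%, near the 24.4% of all tested genes). Smc2, the core ATPase of condensin, read 3.58, 3.46 and 3.14 on the positive arrays against 3.99, 3.82 and 3.98 on the negative arrays (chr4:52501012-52501071, plus strand), a difference of −0.54 ± 0.15 (adjusted p = 0.031). Ncapd2, a subunit of condensin I, read 5.62, 5.92 and 5.78 on the positive arrays against 6.40, 6.17 and 6.24 on the negative arrays (chr6:125118012-125118066, minus strand), a difference of −0.50 ± 0.13 (adjusted p = 0.026). Neither gene overlaps between the groups. Ncaph, another condensin I subunit, read 4.68, 4.87 and 4.74 on the positive arrays against 5.15, 4.97 and 5.19 on the negative arrays (−0.34 ± 0.12, adjusted p = 0.068). Smc4, Ncapg and Cdca2 had −0.39 ± 0.19, −0.29 ± 0.20 and −0.36 ± 0.26.

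The most widely used proliferation marker, Mki67, which coats mitotic chromosomes, read 5.84, 6.10 and 5.87 on the positive arrays against 6.14, 6.35 and 6.37 on the negative arrays. The highest positive array lay just under the lowest negative one, and the difference was −0.35 ± 0.13 (adjusted p = 0.078). Its second probe had −0.32 ± 0.12 without overlap. Top2a, the topoisomerase that untangles sister chromatids, read 3.36, 4.45 and 3.97 on the positive arrays against 4.29, 3.96 and 4.37 on the negative arrays. Here positive replicate 2 was the highest of all 6 arrays, and the difference of −0.28 ± 0.29 was not called (adjusted p = 0.49).

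Across the members the arrays differed in a shared way. Positive replicate 2 was the highest of its group in 47 of 56 members, against 33.8% of all tested genes, and negative replicate 3 was the highest of its group in 41, against 44.5% of all. Negative replicate 2 was the lowest of its group in 38 members, against 54.2% of all. Compared slide by slide, the median member difference was −0.38 on slide 1, −0.27 on slide 2 and −0.48 on slide 3, beside −0.14, −0.20 and −0.21 for all tested genes. Positive lay below negative on all 3 slides in 46 of 56 members (82.1%, against 46.8% of all genes), and the groups did not overlap in 27 (48.2% below, against 36.3% of all genes). Among the 3299 brightest genes, which include 31 members, these shares were 67.8% and 57.9%. With slide as a block the differences were the same and 19 members were called lower (33.9%), beside 27.3% of all genes called lower. Of the 3299 brightest genes 1347 were called lower with the block. The 19 members were the 11 called without the block and 8 more, Plk4, Cenpn, Kif15, Cdc25c, Cenpa, Kif20b, Espl1 and Cdca3.

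The count of called members depended on single arrays. It was 1 without negative replicate 1, 1 without negative replicate 3 and 2 without positive replicate 3, against 8, 11 and 14 without negative replicate 2, positive replicate 1 and positive replicate 2. The count over all 13197 tested genes moved too, from 2485 to 5176 in these fits, beside 4617 with all arrays. Spc24 was called under every one of 18 alternative fits that give it an adjusted p, including all 6 that leave out an array (adjusted p 0.0079 to 0.030). Nuf2 was called in 12, Ccna2 in 11, and the remaining 8 called members in 6 to 9.

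How the arrays were scaled moved the whole group. Relative to the median of all tested genes the members' median was −0.18 under both the 75th percentile and median centring, with 11 members called under the first scaling and 3 under the second, beside 24.4% and 17% of all genes called lower. Under quantile normalization the members' median was −0.12 against −0.04 for all genes, 1 member was called (Spc24), and 13.3% of all genes were called lower. With normexp background correction and quantile normalization it was −0.11 against −0.03, with 2 members called, Spc24 and Nuf2, and 14.3% of all genes called lower. In the authors' normalized log2 values it was −0.13 against −0.04, again with Spc24 and Nuf2 called, beside 14.5% of all genes called lower. Of the 56 members, 53 had a negative difference under median centring, 40 under quantile normalization, 39 under normexp with quantile normalization and 41 in the authors' values. Ccnb1, Plk1 and Top2a were among the genes whose sign turned under all 3 quantile-based scalings. Lower calls made up 69.7% of the calls over all genes under the 75th percentile and 53.7% to 55.4% under the other 4 scalings. For Spc24 the difference was −0.69, −0.60, −0.56 and −0.56 under these 4 scalings (adjusted p 0.010 to 0.025).

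**Figure D4:**
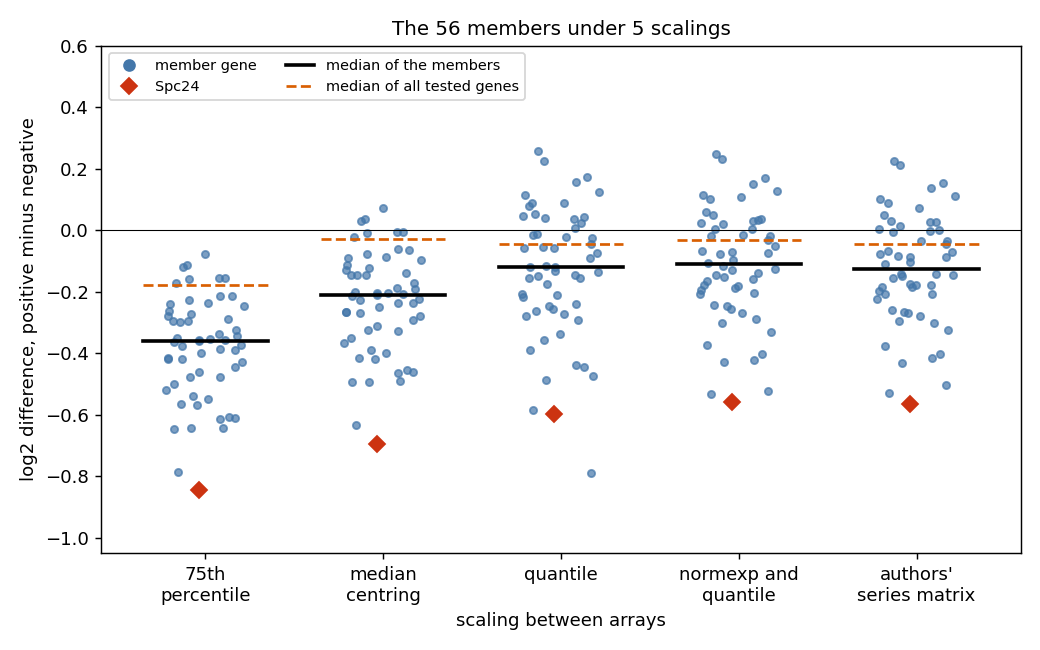
Log2 difference, Sox9-EGFP positive minus negative, of the 56 members under 5 ways of scaling the arrays. Each circle is a gene, the diamond is Spc24, the black line is the members' median and the dashed line that of all tested genes. Both medians move toward 0 under the 3 quantile-based scalings, where they lie 0.07, 0.08 and 0.08 log2 units apart, against 0.18 under the first 2 scalings.

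Genes of the same pathway outside the 58 were counted in lists of their own. Of 30 tested further kinetochore and checkpoint genes, 13 were called lower and 0 higher (43.3% lower, beside 24.4% of all genes; median −0.48), led by Trip13, which disassembles checkpoint complexes (−0.95 ± 0.14), Cenpu (−0.92 ± 0.16), Cenpp (−0.79 ± 0.14) and Cenpm (−0.90 ± 0.17). Of 31 further spindle and cytokinesis genes, 10 were lower (32.3%, median −0.34). They were led by Haspin, Kif24, Cenpj and Haus6 (−0.86, −1.01, −0.52 and −0.69). Of 15 cohesin and other condensin genes, 8 were lower (53.3%, median −0.42). They were led by Cdca5, Ncapg2, Wapl and Ncapd3 (−0.78, −1.01, −0.53 and −0.64). Of 15 genes of the anaphase-promoting complex and its inhibitors, 4 were lower (26.7%, near the 24.4% of all genes; median −0.29), namely Anapc5, Anapc1, Fbxo5 and Anapc11 (−0.62, −0.66, −0.79 and −0.42). In these last 3 lists 0 genes were called higher with the 75th percentile scaling. Under quantile normalization 6 of the 13 kinetochore and checkpoint genes, 5 of the 10 spindle genes, 3 of the 8 cohesin and condensin genes and 0 of the 4 genes of the anaphase-promoting complex stayed called, beside 13.3% of all genes called lower. There the median of the anaphase-promoting complex list was −0.02, and 8 of its 15 genes were negative. A spindle gene was called higher under each of the 3 quantile-based scalings, and a gene of the anaphase-promoting complex under normexp with quantile normalization.

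Of the regulators of G2 and mitotic transcription and entry, 27 were tested. Of these, 14 were lower and 0 higher (51.9% lower, beside 24.4% of all genes), with a median of −0.58. E2f2, an activator of cell cycle transcription, read 2.42, 2.65 and 2.50 on the positive arrays against 3.88, 3.75 and 3.82 on the negative arrays, a difference of −1.29 ± 0.11 (adjusted p = 8.5e-04). Mybl2 encodes B-Myb, which acts with the MuvB complex at G2 and mitotic promoters. Mybl2 read 3.49, 3.68 and 3.59 on the positive arrays against 4.97, 4.73 and 4.79 on the negative arrays (−1.24 ± 0.12, adjusted p = 0.0011). Both genes were called under the other 4 scalings too, where E2f2 differed by −1.14 to −0.98 and Mybl2 by −1.09 to −0.89. Of the 14 called regulators, 7 stayed called under quantile normalization (25.9% of the 27, beside 13.3% of all genes called lower). Pkmyt1, which restrains Cdk1, had −0.94 ± 0.11 and Pbk, a mitotic kinase, −1.10 ± 0.13.

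Genes of the neighbouring cell cycle phases were counted in the same way. Of 45 DNA replication genes 35 were lower and 0 higher (77.8% lower, beside 24.4% of all genes, median −0.78). They were led by Chaf1b, Cdt1, Mcm5 and Mcm2 (−1.14, −1.07, −0.82 and −0.78). Under quantile normalization 21 of the 35 stayed called, beside 13.3% of all genes called lower. The list of G1 cyclins and CDK inhibitors also held the kinase Cdk2 and the retinoblastoma gene Rb1. Of its 13 tested genes, 6 were lower (46.2%), with Cdkn1a, Cdk2 and Rb1 at −2.04, −0.83 and −0.53. Under quantile normalization 3 of the 6 stayed called. Cdkn1a was well above background on 2 of 3 positive arrays, and its difference was −0.86 in the authors' values and −0.87 under normexp with quantile normalization. Cdkn1c, the inhibitor p57, was the 1 that was higher, reading 7.01, 7.11 and 7.15 on the positive arrays against 5.68, 5.39 and 5.64 on the negative arrays (1.52 ± 0.12, adjusted p = 6.8e-04). The difference between the lists was not tested.

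**Figure D5:**
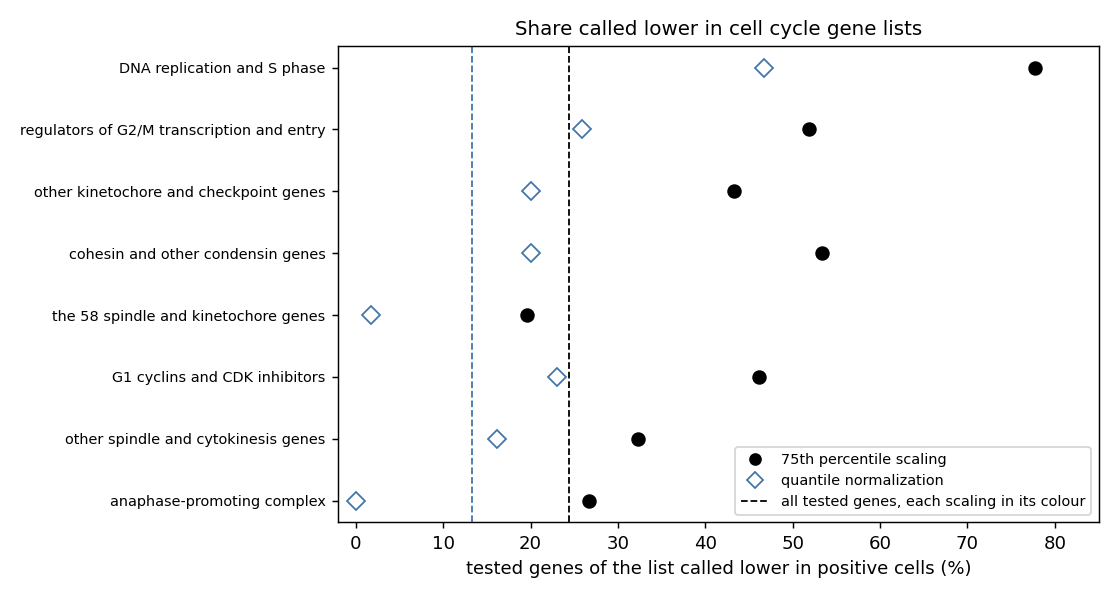
Share of the tested genes of each cell cycle list called lower in Sox9-EGFP positive cells, with 75th percentile scaling (circles) and quantile normalization (diamonds). Dashed lines are the shares of all tested genes, 24.4% and 13.3%. The 58 spindle and kinetochore genes lie left of the line of all genes under both scalings, at 19.6% and 1.79%, while DNA replication genes lie right of it, at 77.8% and 46.7%.

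The promoters of the members share 2 short elements that the choice of genes did not use. The cell cycle homology region (CHR, TTTGAA) is bound by the MuvB complex, and the CCAAT box (CCAAT) by NF-Y, in promoters of G2 and mitotic genes. RefSeq promoter sequences of GRCm38.p6, 250 bases before and 50 after the start, were matched for 49 of the 58 members, and both strands were searched. The CHR letters were present in 34 of 49 members (69.4%), against 20.2% of all 27025 genes in the table and 14.04% of the tested genes. Within 50 bases of the start they were present in 30 of 49 (61.2%), against 5.72% of all genes. The CCAAT letters were present in 37 of 49 (75.5%), against 41.1% of all genes, and both elements in 1 promoter in 29 of 49 (59.2%), against 7.97%. The 2 motifs shared a base at 1 place in the member promoters. A match is a description of letters and not of a bound site.

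The CHR letters were present in 3 of the 8 called members with a promoter sequence and in 30 of the 40 tested members that were not called. DNA replication genes had them in 5 of 37 (13.5%). The 250 bases upstream are printed for Smc2, which was called, and for Cdk1, Cdc20 and Kif11, which were not. In these 4, as in other members, a CHR lies before the start. Capitals mark the CHR and CCAAT letters on either strand, and the base after the last one printed is the start of the gene.
Smc2, chr4:52438971-52439220, plus strand: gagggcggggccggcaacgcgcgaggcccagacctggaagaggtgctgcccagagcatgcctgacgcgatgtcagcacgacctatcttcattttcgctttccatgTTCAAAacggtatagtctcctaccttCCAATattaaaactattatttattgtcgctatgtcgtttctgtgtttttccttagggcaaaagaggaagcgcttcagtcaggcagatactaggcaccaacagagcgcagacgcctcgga
Cdk1, chr10:69352913-69353162, minus strand: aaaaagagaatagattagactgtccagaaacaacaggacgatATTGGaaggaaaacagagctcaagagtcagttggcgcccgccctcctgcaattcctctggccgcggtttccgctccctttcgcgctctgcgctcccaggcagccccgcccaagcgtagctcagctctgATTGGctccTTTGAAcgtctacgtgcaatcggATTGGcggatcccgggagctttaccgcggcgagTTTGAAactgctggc
Cdc20, chr4:118437344-118437593, minus strand: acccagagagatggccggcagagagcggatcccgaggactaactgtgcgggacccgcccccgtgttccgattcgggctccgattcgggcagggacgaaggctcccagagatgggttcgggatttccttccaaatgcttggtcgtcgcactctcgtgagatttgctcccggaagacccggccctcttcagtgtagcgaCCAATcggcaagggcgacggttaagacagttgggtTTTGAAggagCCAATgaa
Kif11, chr19:37376132-37376381, plus strand: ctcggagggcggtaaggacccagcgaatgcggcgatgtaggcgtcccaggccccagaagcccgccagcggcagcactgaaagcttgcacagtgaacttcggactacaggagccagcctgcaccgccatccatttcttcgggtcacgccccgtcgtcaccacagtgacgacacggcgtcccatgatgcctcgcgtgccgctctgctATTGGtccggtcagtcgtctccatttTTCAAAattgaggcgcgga
In Kif11 and Cdc20 the CHR begins 19 and 18 bases before the start. In Cdk1 it occurs 71 and 15 bases before the start, beside 3 CCAAT boxes, and in Smc2 it lies 145 bases before it. Smc2 has a further CHR match beginning at base 27 after the start, beyond the bases printed. The differences of Kif11, Cdc20, Cdk1 and Smc2, given above, were −0.36, −0.24, −0.24 and −0.54.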

How the data were processed

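RNA of 3 Sox9-EGFP positive and 3 negative samples was measured on 1-colour Agilent arrays. Per the file headers, the authors made the deposited intensity values with Feature Extraction 10.7.3.1, which subtracts background on each array but leaves differences between arrays in place. The authors' deposited log2 values, with a median of 6.41 on every array, serve as an alternative, and the sources used here do not state their background correction.

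Each array's processed intensities were divided by their 75th percentile over 59305 non-control spots, and log2 was taken. Outlier spots were left out, replicate spots were averaged, and a probe was kept where it was well above background throughout 1 group or both. Probes were named through RefSeq accessions and symbols, and the brightest probe stood for each gene. The group difference was fitted by limma 3.58.1 (R 4.3.3) with Benjamini-Hochberg adjustment over 13197 genes (threshold 0.05). The exact test of 3 against 3 arrays cannot go below 0.1, so calls rest on the variance shared between genes. The fit was tested on simulated data.

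The members and gene lists were chosen with earlier results of these data known. Array values are given for Mki67, Top2a, Cdk1, Ccnb1, Plk1, Aurkb, Bub1b and the 20 members with the smallest adjusted p. Each further pathway list is named by the 4 genes with the smallest adjusted p, and marker lists of other cell types by the 2 brightest. Of the neural crest list only Sox10 is reported, and a gene of the erythroid list is not reported here. The Ect2, Cdk1 and Birc5 probes and the 4 printed promoters were chosen after their values were seen. Alternatives were other scalings, filters, probe rules, moderation, weights, blocks, thresholds and each array left out. Leaving out both arrays of slide 1 was chosen after seeing the data.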

Additional observations from a re-analysis of the deposited data

How the results depend on the processing

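The count of called members, 11, was 3 under median centring, 1 under quantile normalization, 2 with normexp and quantile normalization, 2 in the authors' log2 values, 1 without a filter on background, 5 in the fit of all probes, 1 at a threshold of 0.01 and 3 with a 1.5-fold limit. It was 19 with slide as a block, 19 with trend and robust moderation and 20 with array weights, and 1 to 14 when 1 array was left out. It was 12 with a stricter filter (above background everywhere), 9 with probes averaged per gene and 13 without slide 1. The count over all genes, 4617, was 2109 at 0.01 and 2656 without the filter. It was 5245 with slide as a block and 2485 to 5176 with 1 array left out. For the 1.5-fold limit, moderation, weights, the stricter filter, averaged probes and the fit without slide 1, no count over all genes is given here. The median of the members, −0.36, was −0.21, −0.12, −0.11 and −0.13 under median centring, quantile normalization, normexp with quantile normalization and the authors' values, and −0.51 to −0.31 with 1 array left out. No member was called higher in any of these fits.

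Same-numbered replicates did not pair (correlations of deviations −0.27, −0.42 and 0.16). With a replicate block 1 member and 2157 genes were called. Arrays of the same slide deviated together (0.46, 0.36 and 0.23).

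The sign turned for Ccnb1 (0.17, 0.17 and 0.15), Plk1 (0.15, 0.16 and 0.14) and Top2a (0.023, 0.046 and 0.0033) under normexp with quantile normalization, quantile normalization and the authors' values. It turned for Ncaph under the first 2 of these (0.0053 and 0.037) and for Kif22 under the first (0.0057). With 1 array left out, Cdk1 ranged from −1.44 to 0.85, above 0 without positive replicate 2 (0.21), positive replicate 3 (0.51) or negative replicate 2 (0.85), and Top2a from −0.54 to 0.0043, above 0 without positive replicate 1. The causes were not tested. With 3 arrays a group the median SE of the members was 0.16, beside their median difference of −0.36, and Aurkb, Kif14 and 1 Cdk1 probe are at background.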

Other observations

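The probes that read high on both arrays of slide 1 were not particular to mitotic genes: 2 of the 402 belong to members, and 143 of the 402 exceeded the other arrays by at least 2 log2 units. Their median A and T content was 60%, against 56.7% for the other 26071 kept probes, with quartiles of 55.0% to 65.0% against 55.0% to 63.3%. No probe read at least 1 log2 unit higher on both arrays of slide 2 or of slide 3, and 35 read that much lower on slide 2. Of the 2 member probes, that of Cdk1 is the brightest of its gene and that of Birc5 is not.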
